A study of Mus musculus with 2 samples.

Results

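The S100 genes encode small EF-hand proteins that bind calcium and, with few exceptions, work as dimers. The data described here are their transcript levels in 1 pool of livers from Yap+/- mice and 1 pool from Yap+/+ mice. The members were taken from a list of 10 gene names, and a probe set was assigned to a member where its annotation gave that symbol and no other. This found 13 probe sets for 9 of the 10 members, among 18193 genes on the array with a probe set of their own. The only probe set listed for S100a11 also carried other symbols, so S100a11 is not described. Where a member had several probe sets, the one with the highest mean over both arrays represented it.

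Yap encodes a co-activator of transcription that the Hippo kinases hold in check. The Yap+/- group was heterozygous for Yap and the Yap+/+ group was wild type. Both were C57BL/6 mice that had received no treatment, and livers were collected on postnatal day 30. Livers of 5 mice per genotype were pooled and each pool was hybridised to 1 array, so a genotype was a single sample, no difference between genotypes could be tested, and no value has an error between mice. The sources used here do not give the sex of the mice or how the Yap allele was made.

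Within the S100 family, members have separate sites of action. S100a8 and S100a9 form the secreted heterodimer calprotectin, the main calcium-binding protein of neutrophils and also a product of monocytes, which signals through Toll-like receptor 4 and the receptor for advanced glycation end products. S100a10 is the partner of annexin A2 at the plasma membrane and, unusually, does not depend on calcium. S100a6 is a growth-associated protein of epithelial and stromal cells, S100a4 marks fibroblasts and some leukocytes, and S100g is the vitamin D-dependent calcium buffer of the intestine. S100a1 is known from heart muscle, S100a13 from the unconventional release of growth factor Fgf1 and interleukin Il1a, and S100a16 is expressed in many tissues.

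Probe set values are on the log2 scale, as the authors deposited them, and each difference is Yap+/- minus Yap+/+ on that scale. A gene with a mean of at least 6 over both arrays is called measured. This held for 6 of the 9 members (S100a1, S100a6, S100a9, S100a10, S100a13 and S100a16) and for 9299 of all genes. S100a4, S100a8 and S100g lay under it, and their values are not shown to be above background. Over measured genes the robust SD of the difference was 0.15, and the brightest pair of probe sets of a gene disagreed about the difference with a robust SD of 0.17. Probe sets of different genes have their own probes, so their levels were not ranked against each other, and the summed linear level of a list serves only to set one pool beside the other.

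The liver label fitted the markers, since 9 of 9 hepatocyte genes read between 13.02 and 15.09, among them albumin (Alb) at 15.1 in both pools. The brighter probe set of Yap1 itself read 9.24 in Yap+/-, against 9.40 in Yap+/+, and the other read 5.77 in Yap+/-, against 6.01 in Yap+/+. Both were slightly lower in Yap+/-, by -0.15 and -0.24, and the sources used here do not say whether either lies in the disrupted part of the gene. In Yap+/- the excess of 3-prime over 5-prime signal was larger for 3 of 4 messenger RNA controls, by 0.22 for Gapdh, 0.21 for pyruvate carboxylase and 0.20 for beta-actin. For the transferrin receptor the difference was -0.035. The part of this RNA or labelling measure in the S100 values was not tested.

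**Figure D1:**
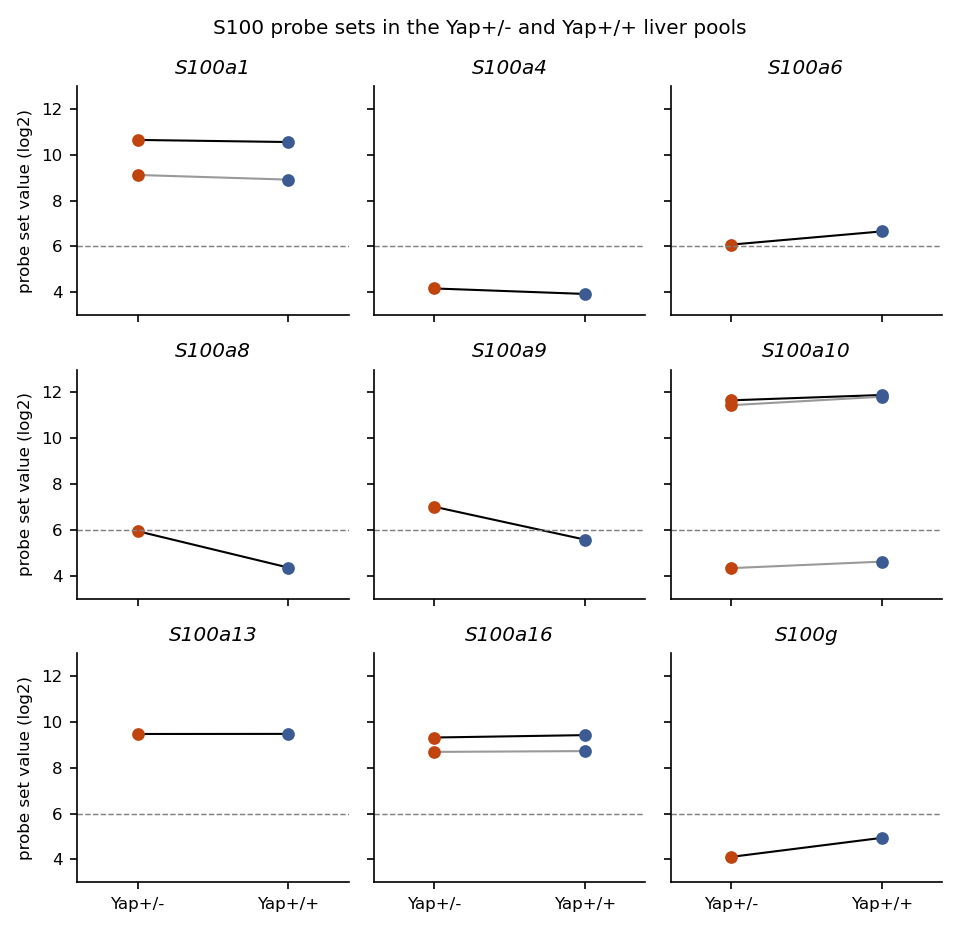
Log2 values of all 13 S100 probe sets (vertical axis) in the Yap+/- pool (left, orange) and the Yap+/+ pool (right, blue), with 1 panel per member. Black lines join the values of the probe set that represents the gene, grey lines those of other probe sets, and the dashed line is the minimum of 6. S100a8 and S100a9 are higher in Yap+/-, S100a6 and S100g are lower, and the other panels are nearly flat.

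The family did not move in one direction. Of the 6 measured members, 2 were higher and 4 were lower in Yap+/-, and their median difference was -0.054, beside 0.00 over all measured genes. S100a9 was the only one at least 2-fold higher (1 of 6), and 0 were at least 2-fold lower. S100a9 read 7.02 in Yap+/- and 5.58 in Yap+/+, so it passed the minimum only through the pool where it was higher. Over all measured genes, 48.8% were higher and 49.6% lower by any amount, 0.0968% were at least 2-fold higher and 0.226% at least 2-fold lower. At 1.5-fold the members' counts were again 1 higher and 0 lower, beside 0.699% and 0.645% of measured genes. With S100a4, S100a8 and S100g included, 4 of 9 were higher and 5 lower, the median was -0.0041, and 2 of 9 (S100a8 and S100a9) were at least 2-fold higher. Of all genes 47.4% were higher and 48.8% lower, 0.066% at least 2-fold higher and 0.203% at least 2-fold lower. The measured median turned to 0.10 when probe sets with a suffix (_a, _s or _x) were left out, which left 4 members, without S100a6 and S100a16, both lower in Yap+/-. The members were chosen with earlier results of these data known, so these counts describe the family and support nothing beyond it.

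**Figure D2:**
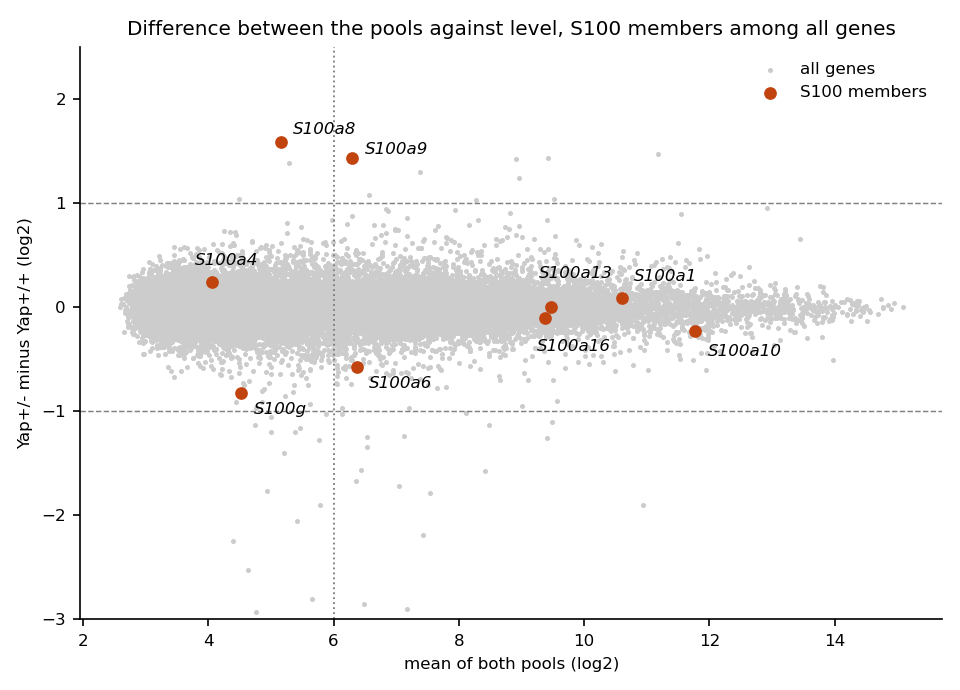
Difference between the pools (Yap+/- minus Yap+/+, log2) against the mean of both pools (log2), with all genes in grey and the 9 S100 members in orange. Dashed lines mark 2-fold and the dotted line the minimum of 6, and 5 genes lie outside the drawn range. S100a8 and S100a9 are at the upper edge of all genes, S100g and S100a6 near the lower edge for their level, and the other members lie within the grey cloud.

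The calprotectin pair was the part of the family that differed most. S100a8 read 5.95 in Yap+/- and 4.36 in Yap+/+, a difference of 1.59 that is nominally 3.01-fold. S100a9 read 7.02 in Yap+/- and 5.58 in Yap+/+, a difference of 1.43 that is nominally 2.70-fold. The S100a8 value of both pools and the S100a9 value of Yap+/+ lay under 6, so neither fold is exact. As deposited, with the same limit, these were the first and the third of the positive differences over all 18193 genes. Each gene has 1 probe set, so no second probe set bears on either value. That of S100a8 carries a suffix for shared targets, and that of S100a9 does not.

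Few genes of a similar level were as much higher in Yap+/-. Among 2443 other genes within 0.5 of the mean of S100a8, 0.0409% were at least 2-fold higher in Yap+/- and 0 were higher by as much as S100a8. Among 2080 other genes within 0.5 of the mean of S100a9, 0.0481% were at least 2-fold higher and again 0 were higher by as much. These counts leave out genes lower in Yap+/-. Of those, Reg1 near S100a8 (-1.77) and Muc1 near S100a9 (-1.67) differed by more. With 64 added on the linear scale, which shrinks differences of dim probe sets, S100a8 differed by 0.57 and S100a9 by 0.79, so neither reached 2-fold. Adding a constant cannot change the direction of a difference, so it does not bear on the direction.

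The promoter windows of S100a8 and S100a9 are shown because these adjacent genes differed together. Each window holds 250 bases before the annotated start and 50 from it on, from RefSeq on GRCm38.p6, printed 5′ to 3′ on the strand of the gene. A window was found for 9 of the 10 members, 10 windows in all, and there was none for S100a10. Capitals mark matches on either strand to TATAAA (the TATA box), TTGCNNAA (a C/EBP core), GAGGAA (a PU.1 core) or CATTCC (the TEAD core, since TEAD factors carry YAP to DNA). C/EBP and PU.1 factors act in myeloid genes. In S100a8 (chr3:90668821-90669120, plus strand) a PU.1 core directly precedes the TATA box without overlapping it. The S100a9 window is chr3:90695672-90695971 on the minus strand.
S100a8: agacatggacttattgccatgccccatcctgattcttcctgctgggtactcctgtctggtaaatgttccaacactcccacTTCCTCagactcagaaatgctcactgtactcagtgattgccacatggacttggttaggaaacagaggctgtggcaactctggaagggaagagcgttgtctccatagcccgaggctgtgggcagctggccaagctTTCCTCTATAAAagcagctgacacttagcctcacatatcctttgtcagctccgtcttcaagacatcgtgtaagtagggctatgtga
S100a9: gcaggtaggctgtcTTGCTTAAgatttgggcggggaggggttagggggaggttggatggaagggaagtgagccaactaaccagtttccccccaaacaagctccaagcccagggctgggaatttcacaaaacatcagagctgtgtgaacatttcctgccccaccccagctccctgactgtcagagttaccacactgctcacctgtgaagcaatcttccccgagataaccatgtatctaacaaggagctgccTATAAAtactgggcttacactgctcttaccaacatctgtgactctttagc

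Both windows hold 1 TATAAA, which begins 30 bases before the annotated start in S100a8 and at the annotated start itself in S100a9. S100a8 also holds 2 GAGGAA matches, 170 and 36 bases before the start, and S100a9 holds 1 TTGCNNAA match, 236 bases before it. Over the family, TATAAA was in a window of 4 of 9 members (S100a4, S100a8, S100a9 and S100g), beside 15.7% of the 27025 genes with a window in the table. TTGCNNAA was in 2 of 9 (S100a9 and S100g), beside 12.2%, and GAGGAA in 4 of 9 (S100a4, S100a8, S100a11 and S100a16), beside 31.3%. CATTCC was in 0 of 9, beside 16.6%, which says only that these letters are not in these windows. Over all 32851 windows the shares were 13.6% for TATAAA, 10.8% for TTGCNNAA, 28.3% for GAGGAA and 14.7% for CATTCC. A match is a description of letters and not a binding site.

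Other genes of neutrophils differed in both directions and, apart from Lcn2, by less than 2-fold. Of 21 neutrophil markers, 18 had a probe set of their own and 3 were measured, of which 1 was higher, 2 were lower and 1 was at least 2-fold lower, with a median of -0.035, beside 0.00 over all measured genes. The formyl peptide receptor Fpr2 read 6.72 in Yap+/-, against 6.35 in Yap+/+, and the granulocyte colony-stimulating factor receptor Csf3r read 6.82 in Yap+/- and 6.86 in Yap+/+. Lcn2, the siderophore-binding protein lipocalin, which hepatocytes also make, read 8.93 in Yap+/-, against 10.04 in Yap+/+ and was 2.15-fold lower. The remaining 15 were under the minimum. Among these, the granule genes Ngp, Camp and Mmp8 read 5.03, 4.63 and 3.38 in Yap+/-, against 4.49, 4.66 and 3.79 in Yap+/+. Without the minimum the list had 11 higher and 7 lower, and its median turned to 0.050.

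On the linear scale the 18 neutrophil markers summed to 1115 in Yap+/- and 1653 in Yap+/+, and the 17 other than Lcn2 summed to 626 in Yap+/- and 602 in Yap+/+. The differences of those 17 ran from -0.58 to 0.54, all smaller than those of S100a8 and S100a9. Most of them were not shown to be above background in either pool, so this measure of neutrophils is weak. In bulk tissue, fewer cells of a type and less RNA per cell cannot be told apart.

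Macrophage markers were higher in the same pool as calprotectin. All 15 Kupffer cell and macrophage markers were measured and all 15 were higher in Yap+/-, where 48.8% of all measured genes were higher by any amount. Their median difference was 0.27 and their range 0.13 to 0.62, and 0 reached 2-fold. The scavenger receptor Marco read 7.92 in Yap+/-, against 7.30 in Yap+/+, while its second probe set, under the minimum, read 5.78 in Yap+/-, against 5.80 in Yap+/+. Cd68 read 7.46 in Yap+/-, against 6.98 in Yap+/+, and Adgre1, a classical macrophage surface marker, read 8.35 in Yap+/-, against 7.92 in Yap+/+. The summed linear level of the list was 14436 in Yap+/- and 11610 in Yap+/+. Of 8 monocyte markers with a probe set, 2 were measured, Plac8 at 8.99 in Yap+/- and 8.96 in Yap+/+ and fibronectin (Fn1, also made by hepatocytes) at 13.2 in both. Without the minimum 7 of the 8 were higher and 1 was lower. Their median was then 0.11, beside 47.4% of all genes higher and a median of 0.00. The list summed to 10117 in Yap+/- and 9862 in Yap+/+, but most of both sums is Fn1, so they say little about monocytes. The part of either cell type in the S100a8 and S100a9 values was not tested.

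Receptors through which secreted S100 proteins signal showed no common direction. Of 8 measured genes of this list, 5 were higher and 3 lower, 0 by 2-fold, with a median of 0.056 that was -0.0064 without the minimum. Tlr4 read 4.65 in Yap+/- and 4.69 in Yap+/+, and Ager, the receptor for advanced glycation end products, read 5.26 in Yap+/- and 5.13 in Yap+/+, both under the minimum. The Toll-like receptor adaptor Myd88 was 1.15-fold higher and the adhesion molecule Alcam 1.24-fold higher. Cd36, a fatty acid transporter that also takes up fatty acid bound to calprotectin, was 1.63-fold lower, and the adhesion molecule Mcam was 1.22-fold lower.

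S100a10 was slightly lower in Yap+/- on all of its 3 probe sets. The brightest read 11.7 in Yap+/- and 11.9 in Yap+/+, the next 11.4 in Yap+/- and 11.8 in Yap+/+, and the dimmest, under the minimum, 4.34 in Yap+/- and 4.62 in Yap+/+. The differences were -0.23, -0.37 and -0.28, each past the robust SD of 0.17 between probe sets of a gene and short of 1.5-fold. That SD came from probe sets above the minimum, which the dimmest is not. It compares probe sets on the same arrays and is no measure of variation between mice or pools. The brightest carries a suffix for shared targets and the other 2 do not. Of 426 other genes within 0.5 of the mean of S100a10, 7.04% were at least as much lower in Yap+/- as its brightest probe set.

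Anxa2, which encodes the annexin partner of S100a10, read 8.25 in Yap+/- and 8.52 in Yap+/+, a difference of -0.27. Among the 7 measured annexins, 4 were lower, 1 was higher and 2 were equal, with a median of -0.054, and 0 differed by 1.5-fold. Of all measured genes, 49.6% were lower and 48.8% higher by any amount. Anxa7 was 1.20-fold lower and Anxa6 was 1.16-fold higher. Anxa1 read 7.19 in both pools. Of 11 annexins without the minimum, Anxa13 alone passed 2-fold, at 4.88 in Yap+/- and 6.05 in Yap+/+, and it was chosen after its value was seen. Of all genes, 0.203% were at least 2-fold lower.

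S100a6 was the lowest of the measured members relative to Yap+/+. It read 6.08 in Yap+/- and 6.66 in Yap+/+, a difference of -0.58 that is 1.49-fold, on its only probe set. Both values lay just above the minimum. Of 2083 other genes within 0.5 of its mean, 0.96% were at least as much lower. Its ubiquitin pathway partner Cacybp, the calcyclin-binding protein, read 8.86 in Yap+/- and 8.91 in Yap+/+.

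S100g had a larger negative difference at a lower level. It read 4.11 in Yap+/- and 4.94 in Yap+/+, a difference of -0.83, with both values under the minimum, so its nominal 1.78-fold is not exact. Of 2864 other genes within 0.5 of its mean, 0.349% were at least as much lower. With 64 added on the linear scale the differences of S100g and S100a6 were -0.22 and -0.32. S100g is the one member on chromosome X. Its window (chrX:162964550-162964849, minus strand, RefSeq on GRCm38.p6) is shown with the same motifs in capitals, since like that of S100a9 it held a TATAAA at the annotated start and a TTGCNNAA, here 142 bases before it.
S100g: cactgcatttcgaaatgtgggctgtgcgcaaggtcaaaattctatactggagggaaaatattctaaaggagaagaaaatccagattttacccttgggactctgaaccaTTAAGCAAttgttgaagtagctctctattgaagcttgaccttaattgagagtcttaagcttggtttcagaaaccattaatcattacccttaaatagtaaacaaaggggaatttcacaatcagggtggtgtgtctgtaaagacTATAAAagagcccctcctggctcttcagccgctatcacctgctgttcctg

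Genes of vitamin D action and calcium transport, the setting in which S100g is known, were mostly dim. Of 12 with a probe set, 4 were measured, 3 lower and 1 higher, with a median of -0.17 that turned to 0.061 without the minimum. The vitamin D receptor Vdr read 4.17 in Yap+/- and 4.13 in Yap+/+. The vitamin D 25-hydroxylase Cyp2r1 was 1.31-fold lower, the calcium pump Atp2b1 1.13-fold lower and the retinoid receptor Rxra 1.07-fold higher.

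Bile duct markers were lower in the same pool as S100a6, S100a10 and S100g. Of 9 with a probe set, 8 were lower and 1 higher in Yap+/-, and 3 were at least 2-fold lower, beside 48.8% of all genes lower by any amount and 0.203% by 2-fold. The 3 measured ones were all lower, 2 of them at least 2-fold, beside 49.6% and 0.226% of measured genes, with a median of -1.67 that was -0.22 without the minimum. Muc1 is 1 of those 2 and its difference is the median of -1.67, yet it passed the minimum only through its Yap+/+ value. The duct-associated glycoprotein Cd24a read 6.65 in Yap+/-, against 8.44 in Yap+/+, the mucin Muc1 read 5.51 in Yap+/-, against 7.19 in Yap+/+, and the duct keratin Krt19, under the minimum, stood at 4.83 in Yap+/-, against 6.73 in Yap+/+. Epcam, a surface marker of duct cells, read 5.23 in Yap+/- and 5.35 in Yap+/+. The list summed to 702 in Yap+/- and 1195 in Yap+/+ on the linear scale. Its part in the S100 values was not tested.

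S100a4 read 4.17 in Yap+/- and 3.93 in Yap+/+, under the minimum in both pools, and its difference of 0.24 was matched or passed by 9.88% of 3279 genes of similar level. Its motor protein partner Myh9, non-muscle myosin, read 10.8 in Yap+/- and 10.6 in Yap+/+. Stellate cell and fibroblast markers, a cell class in which S100a4 is used as a marker, had 6 of 12 measured members higher and 6 lower, with a median of -0.035 that turned to 0.050 with the mean of all probe sets. The matrix protein Dpt was 1.38-fold higher and the intermediate filament gene Des 1.33-fold lower. The list summed to 10452 in Yap+/- and 10424 in Yap+/+.

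**Figure D3:**
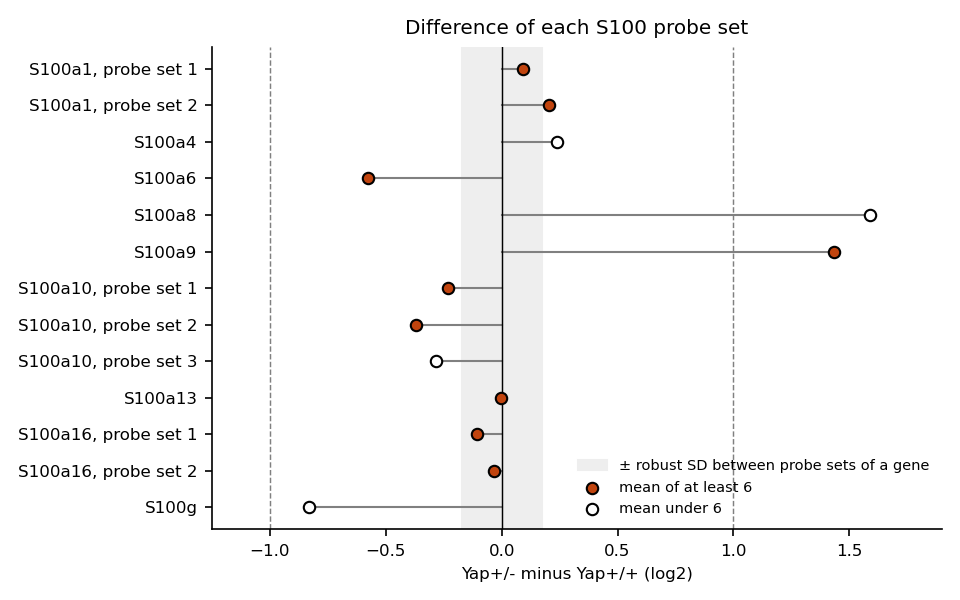
Difference of each of the 13 S100 probe sets (Yap+/- minus Yap+/+, log2, horizontal axis), filled where the mean of both pools is at least 6 and open where it is lower, with probe sets of a gene numbered from the brightest. The grey band is the robust SD of 0.17 between probe sets of the same gene that are above the minimum, and dashed lines mark 2-fold. All probe sets of S100a1, S100a10 and S100a16 lie on one side of 0, and S100a8 and S100a9 alone pass 2-fold.

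S100a1, S100a13 and S100a16 differed little between the pools. S100a1 read 10.6 in both pools on its brighter probe set (difference 0.091), and 9.12 in Yap+/- and 8.92 in Yap+/+ on the other (difference 0.20). S100a13 read 9.47 in Yap+/- and 9.48 in Yap+/+, a difference of -0.0041. S100a16 read 9.32 in Yap+/- and 9.42 in Yap+/+ (difference -0.10), and 8.69 in Yap+/- and 8.73 in Yap+/+ on its other probe set (difference -0.035). Only the second S100a1 probe set passed the robust SD of 0.17 between probe sets.

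S100a1 and S100a13 lie head to head on chromosome 3, and their windows share 204 bases, which are shown in capitals because they face both genes. The S100a1 window is chr3:90514281-90514580 on the minus strand and that of S100a13 is chr3:90514185-90514484 on the plus strand, both RefSeq on GRCm38.p6. The capitals of one are the reverse complement of those of the other. Neither window matched any of the 4 motifs, and their GC content was 61.0% and 59.3%. Over the other members with a window, GC content ran from 41.0% for S100g to 61.7% for S100a11.
S100a1: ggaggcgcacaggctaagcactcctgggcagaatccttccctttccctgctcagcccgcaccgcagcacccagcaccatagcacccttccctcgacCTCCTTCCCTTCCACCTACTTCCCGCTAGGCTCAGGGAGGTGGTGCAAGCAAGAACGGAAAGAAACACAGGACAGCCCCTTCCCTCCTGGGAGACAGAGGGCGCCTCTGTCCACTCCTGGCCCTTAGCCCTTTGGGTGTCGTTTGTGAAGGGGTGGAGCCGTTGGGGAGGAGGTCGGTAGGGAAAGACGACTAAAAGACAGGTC
S100a13: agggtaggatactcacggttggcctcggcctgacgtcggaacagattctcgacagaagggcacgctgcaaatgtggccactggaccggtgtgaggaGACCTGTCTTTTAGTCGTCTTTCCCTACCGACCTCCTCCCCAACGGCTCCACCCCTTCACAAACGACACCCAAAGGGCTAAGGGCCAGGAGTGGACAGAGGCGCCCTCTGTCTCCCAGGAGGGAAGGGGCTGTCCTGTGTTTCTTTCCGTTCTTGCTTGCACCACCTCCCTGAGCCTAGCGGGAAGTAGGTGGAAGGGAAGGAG

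Partners of these proteins inside the cell also differed little. Of 14 measured genes of this list, 8 were higher and 6 lower, 0 by 1.5-fold, with a median of 0.023 that turned to -0.016 with the mean of all probe sets and with suffix-free probe sets. Atp2a2, the calcium pump that S100a1 binds in heart, read 11.2 in Yap+/-, against 11.1 in Yap+/+, and Fgf1, exported with S100a13, read 8.99 in Yap+/- and 8.97 in Yap+/+. These partners were named after their values were seen. The vesicle calcium sensor Syt1 was 1.19-fold and the co-chaperone Sugt1 1.10-fold higher, while nucleolin (Ncl) and Ahnak, a membrane scaffold that binds S100a10 with Anxa2, were each 1.12-fold lower.

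Genes of the same EF-hand fold outside the family had 5 of 12 measured members higher and 7 lower, with a median of -0.028 and 0 past 1.5-fold. The actin-binding Efhd2 was 1.36-fold higher and Aif1, a macrophage protein, 1.24-fold higher, whereas the calcineurin subunit Ppp3r1 was 1.14-fold and Pef1 1.09-fold lower. Of 9 listed other S100 and S100-fused genes with a probe set, 0 were measured, and 2 were higher, 6 lower and 1 equal with a median of -0.078. S100a7l2, which that list does not hold, read 3.13 in Yap+/-, against 2.99 in Yap+/+.

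Along chromosome 3, where 9 of the 10 members lie among 15 S100 genes of the RefSeq annotation, S100a8 and S100a9 were the only adjacent members that were both at least 2-fold apart. In gene order, the differences of the members were 0.091 for S100a1, -0.0041 for S100a13, -0.10 for S100a16, 0.24 for S100a4, -0.58 for S100a6, 1.59 for S100a8, 1.43 for S100a9 and -0.23 for S100a10. Among S100 genes only S100a7a lies between S100a6 and S100a8 in that order, and these 2 differed in opposite directions.

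**Figure D4:**
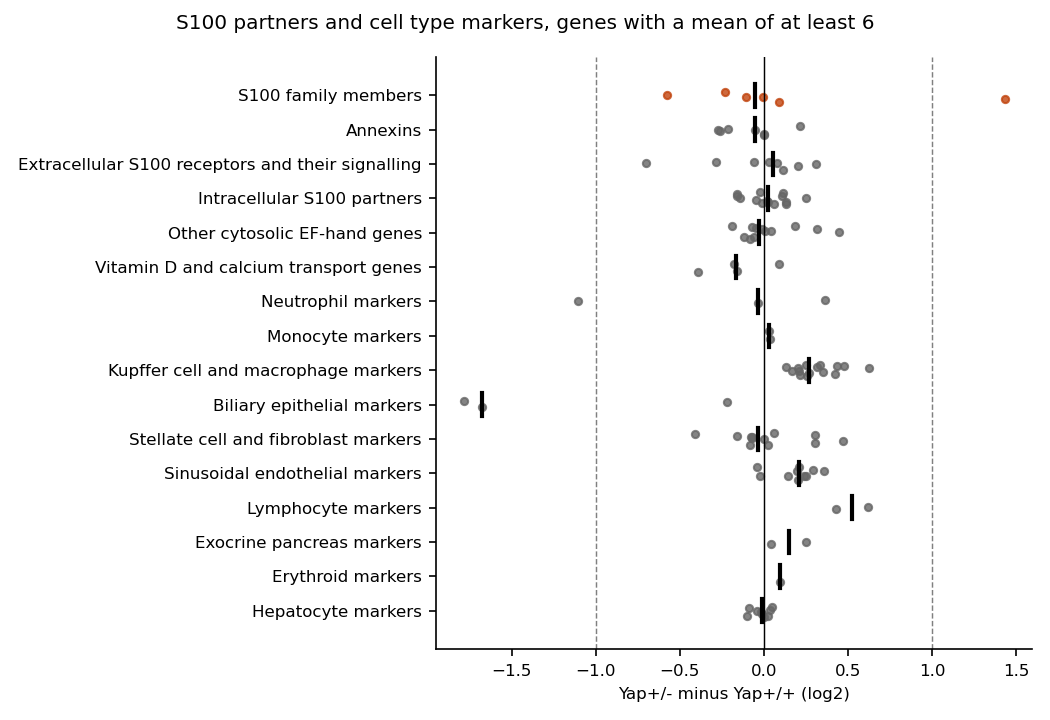
Differences (Yap+/- minus Yap+/+, log2, horizontal axis) of measured genes in the S100 family (orange) and in lists of S100 partners and cell type markers (grey), 1 point per gene, spread vertically at random, with a black bar at the median. Dashed lines mark 2-fold. Kupffer cell and macrophage markers all lie above 0, the 3 measured biliary markers lie below it, and the family itself spans -0.58 to 1.43.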

How the data were processed

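Liver RNA of 1 pool per genotype was measured on 2 Affymetrix arrays. The deposited log2 values were made by the authors, with RMA and Partek 6.5 named in the submitters' processing notes and no settings given in the sources used here. RMA quantile normalises, and the sorted columns differed by at most 0.047, so an overall difference in RNA amount would largely be removed. Of 45101 probe sets, 34945 had 1 gene symbol in the platform annotation, 932 had several, 9160 had none and 64 were array controls. Symbols were checked by gene identifier in RefSeq, which held 34741 of those with 1 symbol and changed 0. The number of arrays limits the precision.

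Differences were counted by size, with a minimum mean of 6 and a threshold of 2-fold. The members and the 16 other lists were chosen with earlier results of these data known. Named were all members, Yap1, up to 2 measured genes per direction of each list and a few listed by name. Counting was tested on simulated data. Alternatives changed the minimum, the probe set choice, the scaling, the threshold and the members. Tools were matplotlib 3.10.9, pandas 2.3.3, numpy 2.4.6 and statsmodels 0.14.6 in Python 3.11.15.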

Additional observations from a re-analysis of the deposited data

How the results depend on the processing

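With 1 pool per genotype, no setting gives a test, and leaving out a sample was not possible. No paired analysis was possible because each genotype had 1 sample. The count of measured members at least 2-fold apart, 1 of 6, was also 1 with the mean of all probe sets, suffix-free probe sets, median centring, lowess, quantile normalisation and a threshold of 1.5-fold. It was 2 of 9 without a minimum, and 0 with a minimum of 7, with 64 added on the linear scale, at 3-fold, without S100a8 and S100a9, and without S100a9, its largest member. The family median of -0.054 lay between -0.10 and 0.10 over its alternatives, and only suffix-free probe sets, with 4 members left, turned its sign. Of 51 recomputed member differences, 46 moved by less than 0.17, 5 moved more, all with 64 added, and 0 changed sign. Most of these could hardly have come out otherwise. Adding 64 cannot change a sign, and the columns were nearly matched before rescaling. For the 6 members with 1 probe set, the choice of probe set changes no value. The count is therefore no measure of how reliable the differences are. The counts over all measured genes, 9 higher and 21 lower, were 12 and 37 without a minimum, 4 and 13 with 64 added, 65 and 60 at 1.5-fold and 0 and 11 at 3-fold. The missing detection calls limit what can be said of values under 6.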

Other observations

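Lists of other cell types that liver tissue can hold were read in the same way, as values with no test. Sinusoidal endothelial markers had 8 of 10 measured members higher and 2 lower in Yap+/-, with a median of 0.21. Over all measured genes 48.8% were higher and 49.6% lower by any amount. The inhibitory Fc receptor Fcgr2b was 1.28-fold and the lectin Clec4g 1.22-fold higher, while Oit3 was 1.03-fold and Kdr 1.02-fold lower. Of the lymphocyte list, 2 members were measured, the chemokine Ccl5 at 1.54-fold and the protease Gzma at 1.34-fold higher. Gzma, at 6.39 in Yap+/- and 5.96 in Yap+/+, reached a mean of 6 only through its Yap+/- value. Counting dim genes too, 7 of the 11 lymphocyte genes with a probe set read higher in Yap+/- and 2 read lower. Cd3d and Cd4 were equal. The median difference of these 11 was 0.085. Of all genes, 47.4% were higher by any amount. Of the exocrine pancreas list 2 were measured, Cela3b and Cela1, with a median of 0.15. Cela3b, at 6.22 in Yap+/- and 5.97 in Yap+/+, passed the minimum only through the pool where it was higher. Without the minimum 5 of 8 exocrine pancreas markers were higher and 3 lower. Among them, 2 under the minimum were at least 2-fold lower, beside 0.203% of all genes. Those were Reg1, at 4.05 in Yap+/- and 5.82 in Yap+/+, and Ctrb1, at 5.13 in Yap+/- and 6.41 in Yap+/+, both named after their values were seen. The 1 measured erythroid marker, Alas2, was 1.07-fold higher, and the 9 hepatocyte markers had a median of -0.010.

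The S100b probe set that represents the gene read 4.71 in both pools, equal to the last deposited digit. The same held for 2136 of the 45101 probe sets.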
